A study of Mus musculus with 120 samples.

Results

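The comparison described here set blood of App-NLGF knock-in mice against blood of wild-type mice at 8 weeks of age, by whole-genome bisulfite sequencing. Its members are the blood week 8 rows of the authors' deposited table of differentially methylated windows of 1 kb, 4526 of the 8961 windows that the table holds over all comparisons. The study covered hippocampus and blood of both genotypes at weeks 3, 8 and 24, in 120 libraries and 12 groups of 10. Each group compared here, labelled APP-nlgf and Wild-type, has 10 libraries, 5 from females and 5 from males, and per the series' design text sex was a covariate. In App-NLGF mice the mouse's own App gene has a humanised amyloid-beta stretch and 3 disease mutations in or beside it, so the altered gene is present in every cell, blood cells included, under its own promoter. DNA came from frozen blood, whose DNA is that of a mixture of white cells in proportions that the labels do not give, so a shift in cell proportions and a change within a cell type cannot be told apart. The table gives 1 difference per window and no value per library, so no spread between animals, no methylation level and no coverage stand behind the values below, and windows are not replicates.

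In mammalian DNA, methyl groups sit mainly on the cytosine of CpG, a C followed by a G. Most CpG in the genome are methylated, while dense clusters of them at gene starts, called CpG islands, are largely unmethylated in most tissues. The flanks of these islands and regulatory elements away from genes vary most between cell types. In blood, lineage transcription factors such as Runx1, Tal1 and Myb control which white or red cell a progenitor becomes, and many genes that mark mature cells start in CpG-poor DNA.

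The called windows with the smallest adjusted p lay mostly on gene starts, and 6 such starts are shown first because the results below turn on their CpG content. Each line gives the 300 bases from 250 before to 50 after the start, 5′ to 3′ along the gene, from RefSeq on GRCm38.p6, with every CG in capitals. They were taken from a set chosen by smallest adjusted p, largest decrease or membership in the blood factor and App lists, keeping those that the called window overlaps and 1 start per locus.
Zfp81: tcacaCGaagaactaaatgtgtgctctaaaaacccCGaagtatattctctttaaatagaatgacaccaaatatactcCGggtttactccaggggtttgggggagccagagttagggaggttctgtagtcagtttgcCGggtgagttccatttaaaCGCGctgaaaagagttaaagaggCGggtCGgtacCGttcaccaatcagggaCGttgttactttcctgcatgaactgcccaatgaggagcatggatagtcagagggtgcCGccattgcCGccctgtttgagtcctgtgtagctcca
Med22: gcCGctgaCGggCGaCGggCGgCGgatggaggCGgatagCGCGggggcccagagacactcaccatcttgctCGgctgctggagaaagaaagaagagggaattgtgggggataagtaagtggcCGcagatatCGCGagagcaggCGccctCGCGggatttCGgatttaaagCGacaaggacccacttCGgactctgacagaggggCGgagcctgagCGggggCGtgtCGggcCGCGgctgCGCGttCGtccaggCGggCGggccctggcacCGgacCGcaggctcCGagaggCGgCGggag
Rab12: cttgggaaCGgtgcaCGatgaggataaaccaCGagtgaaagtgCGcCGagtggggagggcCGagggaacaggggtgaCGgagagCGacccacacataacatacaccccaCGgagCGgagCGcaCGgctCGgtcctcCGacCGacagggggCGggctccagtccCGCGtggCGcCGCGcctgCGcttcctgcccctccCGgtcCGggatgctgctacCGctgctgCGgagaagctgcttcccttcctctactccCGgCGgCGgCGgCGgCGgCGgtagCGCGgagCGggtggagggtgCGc
Sema4a: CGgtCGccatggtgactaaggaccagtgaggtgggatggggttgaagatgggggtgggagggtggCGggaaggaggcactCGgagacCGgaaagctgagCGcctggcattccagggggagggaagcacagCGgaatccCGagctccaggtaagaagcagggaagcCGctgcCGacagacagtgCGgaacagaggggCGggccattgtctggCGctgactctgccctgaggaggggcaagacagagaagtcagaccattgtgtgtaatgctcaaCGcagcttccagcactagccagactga
Zbtb7b: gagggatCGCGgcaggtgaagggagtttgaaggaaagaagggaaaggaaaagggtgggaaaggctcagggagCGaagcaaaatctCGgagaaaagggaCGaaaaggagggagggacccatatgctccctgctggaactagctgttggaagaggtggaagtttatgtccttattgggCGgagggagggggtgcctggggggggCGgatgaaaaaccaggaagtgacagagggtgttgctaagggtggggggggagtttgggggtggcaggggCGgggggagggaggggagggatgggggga
Psenen: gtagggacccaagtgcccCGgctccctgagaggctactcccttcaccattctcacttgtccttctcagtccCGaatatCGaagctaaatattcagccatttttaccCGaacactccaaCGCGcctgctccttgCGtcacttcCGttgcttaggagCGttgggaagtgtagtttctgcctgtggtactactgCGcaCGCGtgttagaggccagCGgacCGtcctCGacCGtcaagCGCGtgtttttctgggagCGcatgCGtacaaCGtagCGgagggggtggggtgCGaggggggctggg

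The Zfp81 stretch, on the minus strand at chr17:33358829-33359128, holds 12 CpG, and the window covers 172 of its bases. Zfp81 encodes a zinc finger protein, and its window had the smallest adjusted p of the comparison in the authors' deposited table, 1.81e-13 with a difference of -10.4 percentage points. The Med22 stretch, minus strand at chr2:26910593-26910892, holds 35 CpG and faces the start of the ribosomal protein gene Rpl7a in the other direction, so 1 window counts for both. Med22 encodes a subunit of Mediator, which links transcription factors to RNA polymerase. The Rab12 stretch, minus strand at chr17:66519621-66519920, holds 37 CpG, and Rab12 encodes a small GTPase of membrane traffic. The Sema4a stretch, minus strand at chr3:88458835-88459134, holds 14 CpG, and Sema4a encodes a semaphorin found on immune cells. The Zbtb7b stretch, minus strand at chr3:89393329-89393628, holds 8 CpG, fewer than the others shown, and Zbtb7b encodes the factor that commits T cells to the CD4 lineage. The Psenen stretch, minus strand at chr7:30563155-30563454, holds 23 CpG, and Psenen encodes a subunit of gamma-secretase, the enzyme that releases amyloid-beta.

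Methylation was lower in App-NLGF blood in 4024 of the 4526 windows and higher in 502, so that 88.9% were lower (95% Clopper-Pearson interval 88.0 to 89.8, over windows and not animals). The windows were 0.196% of 2303865, the number of tested windows recovered from the authors' p-values on the assumption of a Benjamini-Hochberg adjustment. The sign is read from the table's name as App-NLGF minus wild type, and every direction given here would turn if the order were the reverse. By that reading the commonest change was a small loss: the lower windows had a median of -11.6 percentage points with quartiles of -13.1 and -10.7, and 2357 of them, 58.6%, differed by less than 12 points. The higher windows were fewer and larger, with a median of 13.0 points, and 29.1% of them reached 15 points against 10.9% of the lower ones. The largest decrease was -40.4 points and the largest increase 35.5 points. The list holds only differences of at least 10 points, and its members nearest that limit stood at -10.0006 to -10.0017 points.

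The smallest adjusted p-values in the authors' deposited table belonged to lower windows. Of 225 windows with an adjusted p under 1e-05, 225 were lower and 156, or 69.3%, lay within 1 kb of a coding gene's start. Of 1309 windows with an adjusted p from 0.05 to 0.1, 79.8% were lower and 14.1% lay at a start, while 32.5% lay over 10 kb from any gene. The median absolute difference was 11.7 points in the first of these bands and 12.03 in the second. The higher windows had a smallest adjusted p of 0.000101, and 9 of them were under 0.001 against 935 of the lower ones. If the adjustment was by the Benjamini-Hochberg method, 14312 windows passed the threshold on adjusted p whatever their size, and 31.6% of them reached 10 points and entered the list.

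**Figure D1:**
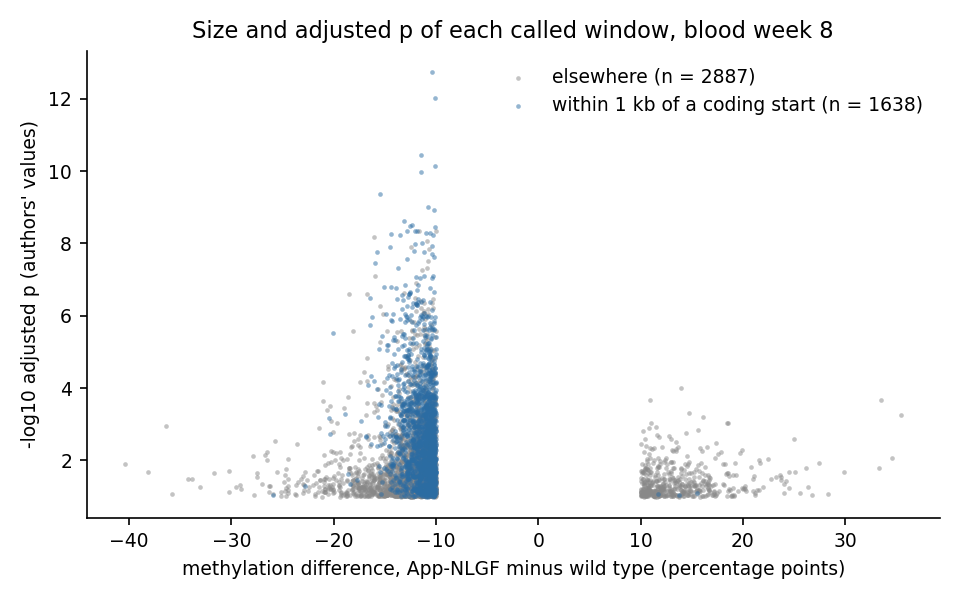
Each point is 1 of 4525 called windows on chromosomes 1 to 19 and X, with its methylation difference in percentage points on the x axis and -log10 of the authors' adjusted p on the y axis. The 1638 windows within 1 kb of a coding start, in blue, lie almost all on the lower side close to -10 points and reach the highest values on the y axis, while the 2887 others, in grey, spread to larger differences in both directions.

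The lower windows gathered at the starts of coding genes. Windows with an edge within 1 kb of a coding start numbered 1638, or 36.2% of those placed, although such positions are 2.07% of all 1 kb windows of these chromosomes. Of these 1638, 1635 were lower and 3 higher. A further 465 windows, 455 of them lower, lay within 1 kb of an outer end of a coding gene and not of a listed start. Only 78 of these could be placed at the 3′ end of a gene of known strand, and the rest include starts that the promoter table does not list. Inside coding genes away from their ends there were 891 windows, 757 lower and 134 higher, on 36.4% of the genome. Over 10 kb from any gene there were 841, with 621 lower and 220 higher, on 35.9% of the genome. The share of lower windows therefore went from 99.8% at starts through 85.0% inside coding genes to 73.8% far from genes.

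Size ran the other way from number. Lower windows at starts had a median of -11.2 points and 2.45% of them reached 15 points, whereas lower windows far from genes had a median of -12.9 points and 29.1% of them did. An adjusted p under 0.001 was reached by 37.7% of windows at starts and by 2.02% of those far from genes. These percentages were not tested, because windows of 1 comparison share their animals and neighbouring windows share fragments. The list was also cut on both adjusted p and size, and the reads per window are not known. The part of that cut in the sizes at each position was not tested.

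Around the start itself the windows formed a narrow peak displaced into the gene. Of all 1 kb windows centred from 0 to 500 bp downstream of a coding start, 7.23% were called lower, 705 windows. The share was 4.48% from 0 to 500 bp upstream and 3.02% from 500 to 1000 bp downstream. It was 1.23% from 500 to 1000 bp upstream and 1.11% from 1000 to 1500 bp downstream, and 0.0852% beyond 5 kb. Counting by the centre of the window, 1506 windows lay within 1 kb of a start, 984 of them downstream, with a median position of 140 bp into the gene. No higher window was centred from 500 bp upstream to 1500 bp downstream of a start.

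**Figure D2:**
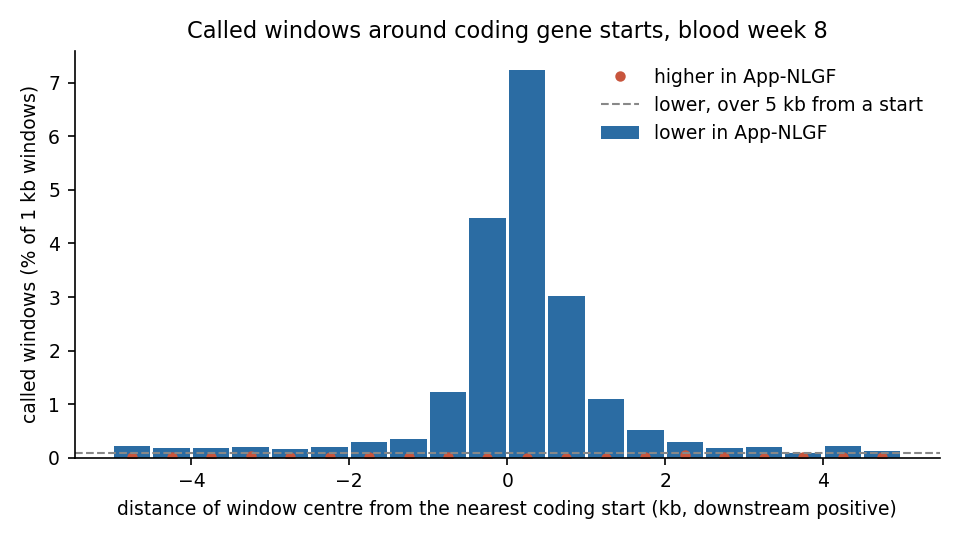
The x axis is the distance in kb of a window's centre from the nearest listed coding start in bins of 500 bp, and the y axis is the percent of all 1 kb windows in that bin that were called. Blue bars, lower windows, peak at 7.23% just downstream of the start; red points, higher windows, stay near 0; the dashed line at 0.0852% is the share of lower windows over 5 kb from a start.

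The starts concerned were CpG-rich, though not the richest. Of 21045 coding starts with a sequence in the RefSeq table, 2015 had a lower window within 1 kb, or 9.57%, and they belonged to 1743 genes. These starts held a median of 22 CpG in 300 bases against 11 in starts without a window, and 76.1% of them held 16 or more against 42.0%. Starts with 0 to 3 CpG had a lower window in 0.593% of cases (29 of 4894). The share rose to 19.4% at 20 to 23 CpG (370 of 1912) and was 11.5% at 32 or more (307 of 2678). The number of cytosines and reads counted in each window is not known here, and its part in these shares was not tested. The table lists no start on one of the autosomes, and leaving that chromosome out changed the share of windows at starts from 33.3% to 34.2%. Gaps are not confined to that chromosome. On chromosome 1 some called windows at coding gene ends lay over 1 Mb from any listed start. In all, 17274 of 21631 coding genes had a listed start, and windows at unlisted starts are not counted as at starts.

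**Figure D3:**
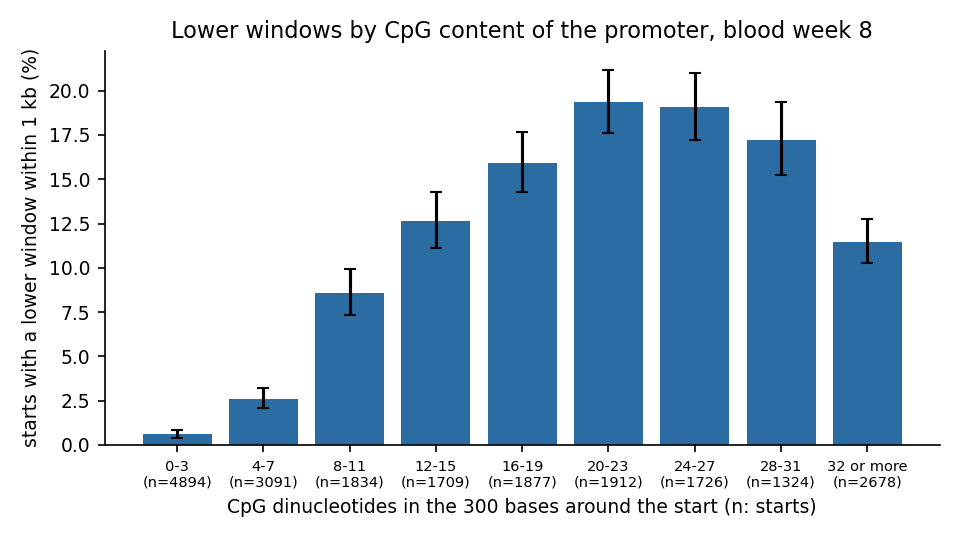
Bars give the percent of listed coding starts with a lower window within 1 kb, by the number of CpG in the 300 bases around the start; whiskers are 95% Clopper-Pearson intervals over starts, and n below each bar is the number of starts. The share rises from 0.593% at 0 to 3 CpG to 19.4% at 20 to 23 CpG and is 11.5% in the richest class.

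After Zfp81 and Med22, the smallest adjusted p-values at starts in the authors' deposited table belonged to 6 further loci, all 6 lower. Rab12 differed by -11.5 points with an adjusted p of 3.62e-11. Hmmr, a hyaluronan receptor that also acts on the mitotic spindle, differed by -10.05 points in a window shared with Nudcd2. Scfd2, a protein of the vesicle fusion machinery, differed by -11.4 points in a window shared with Fip1l1. Slc5a6, the multivitamin transporter that takes up biotin, had the largest difference of the 8, -15.5 points, with an adjusted p of 4.21e-10, in a window that also serves Atraid and Cad. Kdm3a, which removes methyl groups from histone H3, differed by -10.2 points, and Cyp26a1, which breaks down retinoic acid, by -13.1 points.

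Among genes that are not merely predicted, the 6 largest decreases at starts ran from 16.8 to 22.8 points. Flna, which encodes the actin crosslinker filamin A on the X chromosome, had a window 22.8 points lower with an adjusted p of 0.0511. The window at Sema4a was 20.4 points lower (adjusted p 0.0019). The window at Cuta was 18.9 points lower (adjusted p 0.000503). Olfr724, an odorant receptor, Zfp959 and Nudt16l1 followed with 17.8, 17.3 and 16.8 points lower. The 3 starts with a higher window were those of Timd2, a receptor on B cells and liver cells, with 15.5 points, Strada, a partner of the kinase Lkb1, with 13.8 points, and Wapl, which releases cohesin from DNA, with 11.7 points. Their adjusted p-values ran from 0.08 to 0.0929.

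Counted by gene, 4217 of 21631 coding genes, or 19.5%, had a window in the gene or within 10 kb. Of these, 4008 had lower windows alone, 159 higher windows alone and 50 both, and the median difference of coding windows was -11.2 points. Any list of genes is read below against that 19.5%, and against the 10.1% of coding genes with a listed start (1743 of 17274) that had a lower window within 1 kb of it. Counts of members depend on gene length and on how closely genes stand, since a window counts for each gene within reach. No list was tested.

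**Figure D4:**
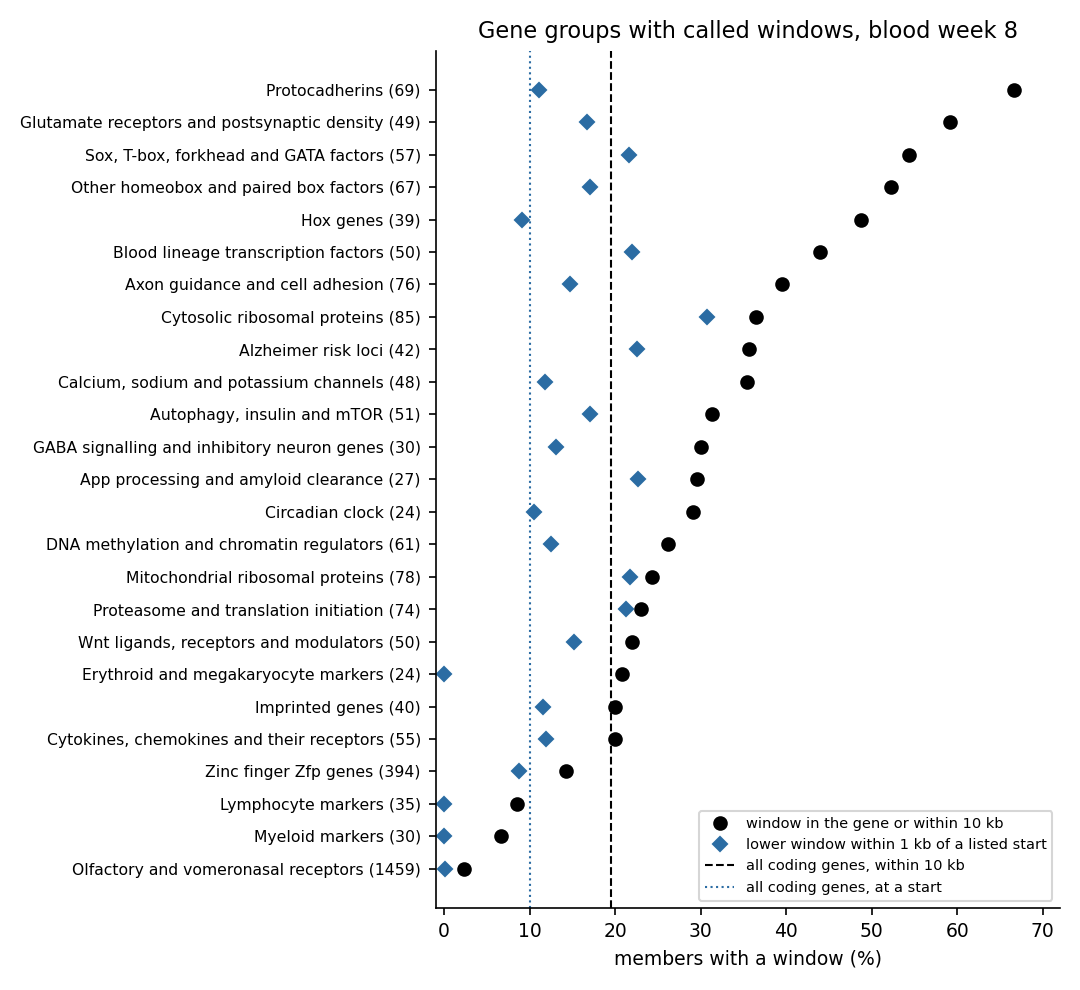
The x axis is the percent of a group's members with a called window, and each row is a gene group with its number of members in brackets. Black circles count windows in the gene or within 10 kb, to be read against the dashed line at 19.5% of all coding genes; blue diamonds count lower windows within 1 kb of a listed start, among members with a listed start, to be read against the dotted line at 10.1%. Protocadherins and postsynaptic genes lead by the first count, cytosolic ribosomal proteins by the second, and lymphocyte, myeloid and erythroid markers stand at 0 in the second.

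Transcription factors of the blood lineages had windows in 22 of 50 members, 44.0%, of which 21 had lower windows alone. A lower window lay at a listed start in 9 of 41. Runx1, needed for the first blood stem cells, was 14.8 points lower just upstream of a start (adjusted p 0.00114). Tal1, which acts with it in early blood formation, had 2 lower windows, of 13.2 points at 3.426 kb from the gene and 10.6 points at its start. Myb, which keeps progenitors dividing, was 11.2 points lower with its window centre 1483.5 bp downstream of the start (adjusted p 1.18e-05). Zbtb7a, a repressor in red and B cells, was 14.5 and 10.3 points lower, and Zbtb7b 11.2 points lower. Pax5, the factor of B cell identity, was 14.1 points lower inside the gene, and Gfi1, a repressor in neutrophils and stem cells, 12.3 points lower at its start.

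The exception among these factors was Ikzf1, which encodes the lymphoid factor Ikaros. Its window inside the gene, at chr11:11741001-11742000, was 26.2 points higher in App-NLGF blood (adjusted p 0.0159), the fifth largest increase among named genes. The other members with a window within the gene or near it included Klf2, Klf4, Runx2, Ikzf3, Mecom, Bcl11a, Bcl11b, Fli1, Gata1, Prdm1, Eomes, Lyl1, Tcf3 and Gfi1b, between -12.1 and -10.1 points in the authors' deposited table.

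Genes that mark mature blood cells had few windows. Lymphocyte markers had them in 3 of 35 members, myeloid markers in 2 of 30, and erythroid and megakaryocyte markers in 5 of 24, the first 2 lists below the 19.5% of coding genes and the last near it. No listed start in the 3 lists had a lower window within 1 kb, of 24, 25 and 17. Their starts are CpG-poor, with medians of 4, 3 and 4 CpG in 300 bases against 13 in all listed starts. The lymphocyte windows lay near Fcer2a, the low-affinity IgE receptor of B cells (-10.8 points, 3.28 kb away), Ccr7, the homing receptor for lymph nodes (-10.6), and Cd4 (-10.2, 8.754 kb away). The myeloid windows lay 4.667 kb from Prtn3, a neutrophil protease (-11.3 points), and 4.831 kb from Cd68, a macrophage protein (-10.9 points), both at the start of another gene.

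Among the red cell and platelet genes, the window near Epor, the erythropoietin receptor, stood out with -15.1 points and an adjusted p of 1.62e-07. It lay 1.897 kb from the gene, at the start of another gene. Ank1, which ties the red cell membrane to its skeleton, was 10.7 points lower within the gene. The windows near Gp1bb, a platelet receptor subunit, Thpo, the platelet growth factor, and Epb42, a red cell membrane protein, were 12.3, 11.2 and 10.2 points lower, between 2.319 and 8.891 kb away. These counts give called windows and not methylation levels, so they are no check that the samples were blood, and shifts in the proportions of white cells were not tested.

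Cytokine, chemokine and receptor genes had windows in 11 of 55 members, 20%, all 11 with lower windows alone. Several lay at starts. Cxcr3, a homing receptor of effector T cells, was 15.4 points lower, Ifnar2, a chain of the type I interferon receptor, 14.0 points lower (adjusted p 2.44e-05), and Tgfbr2, a receptor of TGF-beta, 12.9 points lower. Il13 (12.99 points lower), a cytokine of allergic responses, and Il7 (12.7), a growth factor of lymphocytes, had windows beside or within the gene, and Il1r1, the interleukin 1 receptor, was 11.7 points lower within it.

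Genes of the general machinery of the cell had their windows mostly at starts. Cytosolic ribosomal proteins had windows in 31 of 85 members, with lower windows alone, and 20 of 65 with a listed start had one there, 30.8% against 10.1%. Rps15a was 13.4 points lower, Rpl29 13.2 and Rps19 12.8, and Rpl7a shared the Med22 window shown above. Mitochondrial ribosomal proteins had windows in 19 of 78, again lower alone, and 15 of 69 at a listed start. Proteasome and translation initiation genes had them in 17 of 74, with 13 of 61 at a start, among them Eif4a1, an RNA helicase of translation, with windows of -12.2, -11.2 and -10.9 points in or within 10 kb of it. Their starts held medians of 21, 21 and 22 CpG, in the range where lower windows were commonest among all starts.

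Regulators of DNA methylation and chromatin had windows in 16 of 61 members, 26.2%, and at 6 of 48 starts. Ep300, a histone acetyltransferase, was 14.4 points lower at a start with an adjusted p of 5.41e-09. Kat2b, another acetyltransferase, was 15.8 points lower, and Chd8, a chromatin remodeller, 15.4 points lower, both within the gene. Kdm6a, which removes methyl groups from histone H3 and lies on the X chromosome, had neighbouring windows of -13.3 and -10.7 points at its start. Of imprinted genes, in which 1 parental copy is silent, 8 of 40 had a window, near the share of all coding genes. Gnas, which encodes a G protein subunit, was 14.1 points lower, Igf2, a growth factor, had neighbouring windows of -13.8 and -10.8 points, and Rasgrf1 was 11.97 points lower. The window nearest Nnat, 12.5 points lower, lay 3.476 kb from it at the start of another gene.

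Developmental transcription factors, many of which pattern the embryo, had windows in 48.7% to 54.4% of their members in these 3 lists. The share was 19.5% over all coding genes, and all the windows of the 3 lists were lower. Homeobox and paired box factors outside the Hox clusters had windows in 35 of 67, 52.2%, and all 55 windows were lower. Sox, T-box, forkhead and GATA factors had them in 31 of 57, 54.4%, with 45 windows, 45 of them lower. Hox genes had them in 19 of 39, but only 11 windows stood behind these 19, because genes of a cluster lie within 10 kb of each other. At starts their shares were smaller, 8 of 47 (17.0%), 8 of 37 (21.6%) and 2 of 22 (9.09%). The share of all coding genes with a listed start was 10.1%. The window at the start of Hoxa7, which also reaches Hoxa3, Hoxa6 and Hoxa9, was 13.5 points lower (adjusted p 0.000174).

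Some windows came in runs. Skor1, a corepressor, had 5 lower windows from -13.8 to -11.2 points. Merging windows of the same sign within 10 kb left 4238 regions, of which 257 held 2 or more windows, 254 of them lower and 3 higher. The longest runs held 5 windows and included those at Skor1 and at Rara, the retinoic acid receptor that acts in neutrophil maturation. Dbn1, an actin-binding protein, and Prr7 shared a run of 4. Runs of 3 included Lhx9, Six2, Dlx1 with Dlx2, Nr4a2, Socs3, Brd2 and a histone group with H1f1, H3c1 and H4c1. Of 120 pairs of adjoining windows, 119 had the same sign.

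App itself, at chr16:84952666-85175255, had no called window. Of 27 genes of App processing and amyloid clearance, 8 had a window, 29.6%, and all 8 windows were lower, between -12.3 and -10.4 points in the authors' deposited table. A listed start had one in 5 of 22. Ece1 and Ece2, endothelin-converting enzymes that also degrade amyloid-beta, were 12.3 and 10.4 points lower, the latter window lying 6.851 kb away at another gene's start. Mme, which encodes neprilysin, a protease of amyloid-beta, was 11.5 points lower within the gene with an adjusted p of 0.0969. Gamma-secretase subunits followed, with Aph1a 11.3, Aph1b 11.2 and Psenen 11.02 points lower at their starts, Psenen with the smallest adjusted p of the list, 3.15e-05. Apbb1, an adaptor that binds the tail of App, had its window 3.465 kb away (-11.1 points), and Apoe, a lipid carrier, was 10.4 points lower at a start.

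Genes near human Alzheimer risk loci had windows in 15 of 42 members, 35.7%, with lower windows alone, and 7 of 31 at a listed start. Tspoap1 was 18.8 points lower within the gene (adjusted p 0.0934), Celf1, an RNA-binding protein, 15.0 points lower at a start (adjusted p 0.00254), and Fermt2, an integrin activator, 13.6 points lower. The window near Trem2, a receptor of myeloid cells, was 14.2 points lower and lay 3.401 kb from the gene (adjusted p 0.0546). Epha1 and Grn had windows 13.1 and 12.02 points lower, the former 7.487 kb away. Autophagy, insulin and mTOR genes had windows in 16 of 51 and clock genes in 7 of 24, again with lower windows alone.

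Genes of synapses and neuronal adhesion, many of them very long, carried windows of both signs. Glutamate receptors and postsynaptic proteins had windows in 29 of 49 members, 59.2%, with 22 lower alone, 3 higher alone and 4 both. The largest was Grid1, a delta receptor, 19.99 points higher (adjusted p 0.0606). Nrxn3, an adhesion protein of the presynaptic side, had windows of -18.8 and -14.8 points, and Grm7, a metabotropic receptor, of -16.1 and -14.6. Axon guidance and adhesion genes had windows in 30 of 76, with 25 lower alone, 1 higher alone and 4 both, and calcium, sodium and potassium channels in 17 of 48, with 15 lower alone and 2 higher alone. Genes of GABA signalling had 9 of 30, including Gad2, which makes GABA, 12.7 points lower at a start (adjusted p 1.66e-05).

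Families that stand in clusters gave counts that need their windows beside them. Protocadherins, adhesion proteins of neurons, had a window in 46 of 69 members, but these were 19 windows, since 1 window inside overlapping genes counted for many of them. Zinc finger genes named Zfp had windows in 56 of 394, 14.2%, and Wnt ligands, receptors and modulators in 11 of 50. Olfactory and vomeronasal receptors, whose starts held a median of 1 CpG, had windows in 34 of 1459, 2.33%, and at a start in 2 of 1261. Of their 27 windows, 20 were lower and 7 higher, a smaller lower share than in the other lists with over 20 windows. Most of these windows lay outside genes but within 10 kb of 1, where 77.9% of all called windows were lower.

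Away from the ends of coding genes there were 2422 windows, 1933 lower and 489 higher, and 79.8% lower. The largest decreases among named genes in the authors' deposited table lay there. Pcdh11x, a protocadherin on the X chromosome, was 38.1 points lower at chrX:120723001-120724000 (adjusted p 0.0212). Tulp3, a protein of primary cilia, was 33.9 points lower, Lsamp, a neuronal adhesion protein, 30.2, and Cpne4, a calcium-binding copine, 27.5. Windows near Olfr769, Serpinb12 and Nlrp4f were 26.3, 26.2 and 25.1 points lower, each over 3 kb outside the gene, and Map3k15 was 24.7 points lower. Their adjusted p-values ran from 0.0212 to 0.0968.

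The largest increases were of a like size. Tyr, which encodes tyrosinase, the pigment enzyme, was 34.5 points higher at chr7:87447001-87448000 (adjusted p 0.00871). Lrrc4c, a synaptic adhesion protein, was 29.9 points higher, and Epha6, an ephrin receptor on chromosome 16, 27.5. A window in the T cell receptor alpha locus, Tcra, was 28.3 points higher. That locus is cut and rejoined in T cells and spans 1796.23 kb here, and it held 5 windows, 3 lower and 2 higher. Acsm1, an acyl-CoA synthetase, was 24.98 points higher, Lrp1b, a receptor of the LDL receptor family, 23.6, and Sgcd, a muscle sarcoglycan, 22.8.

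The smallest adjusted p-values away from gene ends belonged to small losses. Dleu2, a noncoding RNA gene that hosts the miR-15a and miR-16 cluster, was 11.7 points lower (adjusted p 4.44e-09), and a window on the tRNA gene n-TQctg2 was 10.01 points lower. Mxi1, an antagonist of Myc, was 10.8 points lower, Pdgfra, a growth factor receptor, 12.5, Cdx2, an intestinal homeobox factor, 10.8, and Metap2, which trims the first methionine from proteins, 10.9. The windows in Metap2, Cdx2, Mxi1 and Pdgfra were centred between 1701.5 and 4249.5 bp downstream of a start, close to but beyond the limit for a start.

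Inside coding genes the direction differed with gene length. The 757 lower windows lay in genes of a median 102 kb, and 51.3% were in genes over 100 kb. The 134 higher windows lay in genes of a median 306 kb, and 73.9% were in genes over 100 kb and 32.8% in genes over 500 kb. All windows of the genome inside coding genes and away from their ends, 956881 in number, had a median gene of 156 kb, with 62.8% over 100 kb and 19.8% over 500 kb. Lower windows therefore lay in shorter genes than the genome gives and higher windows in longer ones, and this difference was not tested. Dpp10, a channel subunit of 1513.68 kb, held 6 windows, the most of any gene, of which 5 were lower and 1 higher. Lrp1b held 5, with 2 lower and 3 higher, while Snrnp70, a splicing protein of 19.289 kb, held 5 lower ones.

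Windows lay on every autosome and on X, from 1.39 per Mb on chromosome 13 to 2.50 per Mb on chromosome 11. Over these 20 chromosomes lower windows per Mb followed coding genes per Mb (Pearson r 0.874), and higher windows did not (r -0.288), a description over chromosomes that share their libraries. Chromosome 16, which carries App, had the smallest share of lower windows, 80.0% of 155 (95% Clopper-Pearson interval 72.8 to 86.0), against 85.0% to 92.2% on the others. Away from gene ends its share was 64.4%, against 74.3% to 83.9%. It also had the most higher windows per Mb, 0.316 against 0.145 to 0.232. Within 5 Mb of App there were 25 windows, 18 lower and 7 higher. From 5 to 20 Mb there were 47, with 39 lower and 8 higher, and beyond 20 Mb 83, with 67 lower and 16 higher.

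**Figure D5:**
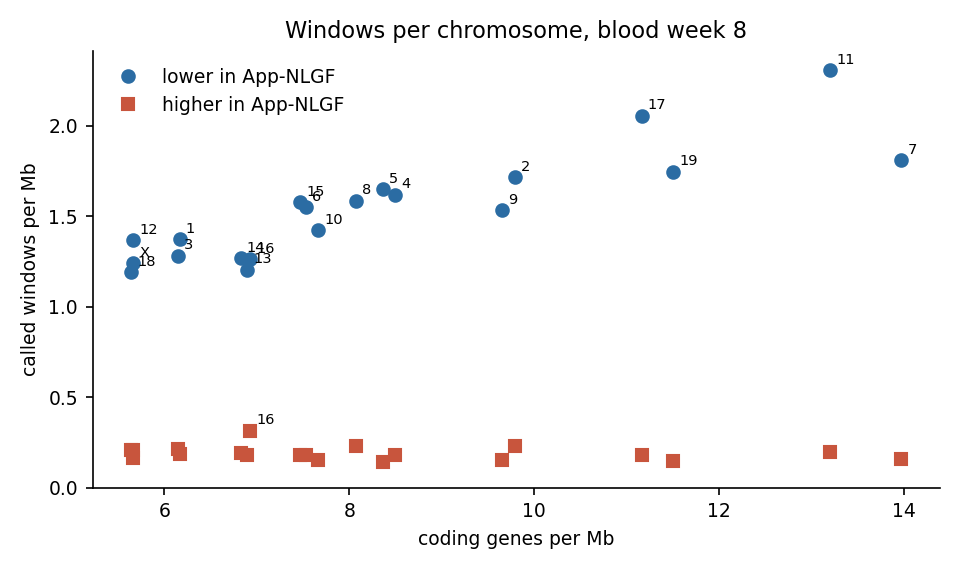
Each chromosome is a pair of points at its number of coding genes per Mb, on the x axis, with called windows per Mb on the y axis, lower windows as blue circles with the chromosome's name and higher windows as red squares. Lower windows rise with gene density up to 2.30 per Mb on chromosome 11, while higher windows stay between 0.145 and 0.232 except on chromosome 16, at 0.316.

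Within 1 Mb of App stood 5 windows, all 5 lower. Adamts1 and Adamts5, which encode proteases of the extracellular matrix, were 10.5 and 11.5 points lower, the latter with an adjusted p of 0.000783. A window with no gene within 10 kb, at chr16:86113001-86114000, was 16.02 points lower with the smallest adjusted p of the 5, 0.000265. On the X chromosome 248 windows were called, 85.5% of them lower.

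Beside the other 5 lists of the same table, this list held more windows, smaller differences and more windows at starts. Windows centred within 1 kb of a coding start were 33.3% of the blood week 8 windows and between 1.06% and 3.62% of the others. Its number of windows was 4526 against 567 to 1153, and its median absolute difference 11.7 points against 13.5 to 14.9. In blood, 36.8% of windows were lower at week 3 and 17.5% at week 24, against 88.9% at week 8. In hippocampus 70.5% were lower at week 3, 45.4% at week 8 and 41.4% at week 24. With no values per library, the difference between ages was not tested, and processing batches are not stated in the labels. The lists were each thresholded on their own adjusted p, and the largest p that entered was 0.000621 in blood at week 8 and between 4.13e-05 and 7.84e-05 in the others.

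Of the 4526 windows, 13 were called in another comparison. Blood at week 3 shared 2 of them (0.0442% of this list and 0.173% of that one) and blood at week 24 shared 1 (0.176% of that list). The hippocampus lists shared 4 at week 3, 1 at week 8 and 6 at week 24, or 0.391%, 0.135% and 0.632% of those lists. Over all tested windows, by the number recovered under that assumed adjustment, 0.196% were called here. The shares in the other lists lay on both sides of that background. All 4 shared with hippocampus at week 3 had the same sign, in lists that were each mostly lower, 88.9% here and 70.5% there. Mettl27, a methyltransferase-like protein, was 11.1 points lower in blood and 12.2 lower there at its start, with adjusted p-values of 0.000184 and 1.63e-13. The window at Srp54b, a part of the signal recognition particle, was 14.0 and 17.3 points lower.

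Other shared windows were mixed in sign. The sign was the same in 4 of the 6 shared with hippocampus at week 24 and in 1 of the 2 shared with blood at week 3. It turned in the 1 shared with blood at week 24 and the 1 shared with hippocampus at week 8. A window at the start of Eif4a3, a core protein of the exon junction complex, was 11.6 points lower in blood and 11.5 higher in hippocampus at week 8. A window in Cacna2d1, a calcium channel subunit, was 10.5 points lower at week 8 and 15.3 higher in blood at week 3, and 1 beside Il13 was 13.0 points lower here and 14.0 higher in hippocampus at week 24. A window on chromosome 16 at 79105001 to 79106000, over 10 kb from any gene, was lower in 3 lists, by 24.8 points here, 36.7 in blood at week 3 and 31.9 in hippocampus at week 3. The labels do not say which blood and hippocampus libraries came from the same mice.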

How the data were processed

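Blood and hippocampus DNA was measured by whole-genome bisulfite sequencing, and blood at week 8 is used here. The submitters' processing notes name mm10, FastQC, Trim Galore, Bismark and methylKit; versions, coverage filter, test and adjustment method: not given in the sources used here. Both p-values and adjusted p-values are the authors' own, as deposited; methylation differences, also deposited, are in percentage points. Every listed window has an adjusted p under 0.1 and at least 10 points. Columns of per-library values used here numbered 0, so the depth is unknown and no model was fitted.

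The number of tests was recovered as the whole number for which p over adjusted p gives whole ranks (78.1% within 0.02), assuming Benjamini-Hochberg. Windows were placed on RefSeq genes and starts of GRCm38.p6 (coordinates of mm10), with 1 window on a scaffold left out of positions; 17274 of 21631 coding genes had a listed start. Genes were assigned within 10 kb. Intervals are exact Clopper-Pearson at 95%, over windows or starts, and cover counting alone. Named genes are the 8 largest decreases and increases, the 8 smallest adjusted p at starts, the 6 smallest away from ends, the 10 genes with most windows, up to 6 members per list, and windows near App or shared; further list members, the 6 largest decreases and the 3 increases at starts were added after their values were seen; some items that the rule names are not reported here. The members and 25 lists were chosen with earlier results of these data known. Scripts (Python 3.11.15, pandas 2.3.3, scipy 1.17.1) were tested on simulated data.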

Additional observations from a re-analysis of the deposited data

How the results depend on the processing

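Limits of the list set most of what was counted. The number of windows was 4526 as deposited, 1863 at an adjusted p under 0.01, 944 under 0.001, 583 at 15 points or more and 149 at 20 points or more. The lower share of 88.9% became 92.6%, 97.2% and 99.05% at adjusted p under 0.05, 0.01 and 0.001, and 74.96% and 73.8% at 15 and 20 points. It was 81.4% without windows within 1 kb of an outer end of a coding gene, which keeps windows at listed starts inside genes. The 79.8% given above for windows away from gene ends leaves those out too. By the outer ends of the gene table, 41.9% of windows lay within 1 kb of a coding start or end; this was 36.9%, 47.2% and 54.2% at 0.5, 2 and 5 kb, 47.8% with all genes, 52.0%, 65.8% and 75.1% at the 3 adjusted p limits, and 8.92% and 2.68% at 15 and 20 points. The share centred within 1 kb of a listed coding start, 33.3%, was 24.7% and 37.8% at 0.5 and 2 kb, 41.9%, 53.9% and 62.2% at the 3 adjusted p limits, and 6.17% and 2.68% at 15 and 20 points. Coding genes with a window were 19.5%, 13.1% by the gene body alone and 10.1% by a lower window at a listed start. Starts with a lower window were 9.57%, 7.25% where the window overlaps the 300 bases and 3.89% at adjusted p under 0.001; of these 76.1%, 78.2% and 80.1% held 16 or more CpG. Windows shared with another comparison were 13, and 91 within 5 kb. Without chromosome X or 16, merged within 10 kb, without the autosome that has no listed start or with 1 start per gene, those values stayed within their intervals or within 1.5 times. Of 25 gene lists, 18 kept a count within 1.5 times by the gene body alone, 7 without gene ends and none at adjusted p under 0.001. The alternatives for listed starts were chosen after seeing the data. Other causes of these shifts were not tested. No paired analysis was possible because the list holds no values per library, and for the same reason no library could be left out.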

Other observations

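Starts that face another start within 1 kb, as Med22 and Rpl7a do, had a lower window in 356 of 1694 cases, 21.0%, against 1659 of 19351, 8.57%, for other starts. Such paired starts are more often CpG-rich, 83.4% with 16 or more CpG against 41.9%. Among starts with 16 or more CpG the shares were 22.8% (322 of 1413) and 14.9% (1211 of 8104). A window near a pair of starts counts for both, so these starts are not independent, and the difference was not tested.

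Short sequence motifs were counted on both strands of the same 300 bases. The GC box GGGCGG, bound by Sp1, was in 46.7% of all listed starts, in 69.9% of those with a lower window and in 44.2% of those without. Among starts with 16 or more CpG these shares were 77.9% with and 78.5% without. The ETS motif CCGGAAG was in 11.7% of all, 19.3% with and 10.9% without a lower window, and in 21.9% and 19.5% of the CpG-rich. CCAAT, bound by NF-Y, was in 38.5% of all, 40.0% and 38.3%, and in 40.5% and 34.3% of the CpG-rich. TATAAA was in 12.7% of all, 6.15% and 13.3%, and in 4.57% and 4.25% of the CpG-rich. The NRF1 half-site TGCGCA was in 9.74% of all, 14.6% and 9.21%, and in 17.4% and 16.6% of the CpG-rich. TGACGTCA, the cAMP response element, was in 2.26% of all, 3.18% and 2.16%, and in 3.52% and 3.70% of the CpG-rich. AGATAA, a motif of the red cell factor Gata1, was in 9.68% of all, 5.11% of starts with a lower window and 10.2% of those without, and in 3.07% and 3.22% of the CpG-rich. GAGGAA, a motif of the myeloid factor PU.1, was in 27.2% of all, 25.3% and 27.4%, and in 23.9% and 22.9% of the CpG-rich. A match is a run of letters, not a bound site, and some motifs overlap.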
